A study of Mus musculus with 36 samples.

Results

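The type I interferon response genes described here are 38 mouse genes known to be induced by type I interferon, listed by symbol and matched to the gene identifiers of 2 deposited count tables. All 38 were found among 55414 gene identifiers. They were grouped by role into 6 RNA and DNA sensors (Ifih1, Ddx58, Dhx58, Zbp1, Ifi204, Eif2ak2), 6 signalling and transcription genes (Irf7, Stat2, Irf9, Usp18, Isg15, Herc6), 4 IFIT genes, 5 OAS family genes, 2 Mx GTPases, 8 antiviral enzymes and restriction factors, 4 genes of the PARP and DTX3L group, and 3 genes linked to apoptosis and growth (Xaf1, Ifi27l2a, Slfn1). RNA came from freshly sorted cells of a mouse model of infant mixed-lineage leukaemia driven by the Kmt2a-AFF1 fusion, and was sequenced in bulk as total RNA. The leukaemia groups carried Kmt2a-AFF1 with an overexpressed microRNA, which the sample labels call miR-130b and the series text calls miR-130a, and their mice had terminal disease. The control groups also carried Kmt2a-AFF1, together with a scrambled microRNA, and were not leukaemic, so no group was free of the fusion. Ages were not given in the sources used here. Lin- c-Kit+ cells were sorted by Sca-1 and Flt3 into HSC/MPP (positive for Sca-1 only, called HSC below), LMPP (positive for both) and LK/CLP (Sca-1-, called LK below) from the bone marrow (BM) of both arms and the central nervous system (CNS) of leukaemic mice. This gave 9 groups of 4 libraries. From the shared stem of the mouse labels, which otherwise differ by a tissue or cell type suffix, the libraries were read as coming from 12 leukaemic mice, which each gave a pair of libraries, BM and CNS, for 1 of the cell types, and 4 control mice, which each gave all 3 cell types, although the series text speaks of a single control mouse.

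Type I interferons bind the receptor IFNAR and activate the kinases JAK1 and TYK2, which phosphorylate STAT2. STAT2 and IRF9 are parts of the complex ISGF3, which binds the interferon-stimulated response element (ISRE) in promoters and switches on antiviral genes. IRF7 is itself induced and amplifies interferon production, and the cytosolic sensors RIG-I (Ddx58), MDA5 (Ifih1) and LGP2 (Dhx58) detect foreign RNA upstream of it. In haematopoietic stem cells, interferon is known to drive quiescent cells into cycle, and stem cells keep some interferon response genes on without infection.

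Promoter windows from 250 bases before to 50 bases after the transcription start were taken from RefSeq (GRCm38.p6) and were found for 27 of the 38 genes. The excerpts below are examples of windows that carry the ISRE letters, from genes named in the comparisons that follow. They are written 5′ to 3′ on the gene's strand, and capitals mark matches to the ISRE core, which is GAAA, any 2 bases and GAAA again, or TTTC, any 2 bases and TTTC where it lies on the other strand.
Ifit3 (chr19:34583358-34583431, + strand, nearest match 112 bases before the start): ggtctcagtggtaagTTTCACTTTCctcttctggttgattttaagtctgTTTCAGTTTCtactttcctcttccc
Ifit1 (chr19:34640770-34640828, + strand, 75 bases before): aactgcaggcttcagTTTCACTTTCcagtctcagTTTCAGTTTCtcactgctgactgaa
Stat2 (chr10:128270261-128270300, + strand, 212 bases before): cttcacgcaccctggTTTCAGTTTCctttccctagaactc
Oas3 (chr5:120777710-120777749, - strand, 65 bases before): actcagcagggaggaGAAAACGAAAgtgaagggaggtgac
Isg15 (chr4:156200860-156200911, - strand, 56 bases before): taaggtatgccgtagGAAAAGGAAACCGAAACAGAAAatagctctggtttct
Bst2 (chr8:71537572-71537617, - strand, 114 bases before): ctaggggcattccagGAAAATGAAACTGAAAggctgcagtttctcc
The Ifit3 excerpt is identical to that of its neighbour Ifit3b, and the capitals of Isg15 and Bst2 cover matches that overlap one another. Searched on both strands, the ISRE core was in the windows of 14 of the 27 genes (51.9%), against 1079 of 27025 genes with a window (3.99%). The gamma-activated site TTCNNNGAA was in 6 of the 27 (22.2%), against 9.55% of all windows, and it overlapped an ISRE match in Bst2 and Ifitm3. The windows of Irf7, Irf9, Slfn1, Parp12 and Samhd1 did not hold the ISRE letters. A match is a description of the letters, not evidence of binding. The genes without a window were Usp18, Mx1, Mx2, Rtp4, Oas2, Ifi27l2a, Zbp1, Ifi204, Dhx58, Parp14 and Parp9.

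The 36 libraries held 1909638 to 30442297 gene counts. Reads over 1776 sensory receptor genes, which these cells are not known to use, set a background per kilobase of exon, and a gene counted as above background where its count exceeded 3 times that background plus 10. Counts at the background rate over exons made up 0.45% to 26.7% of the total in leukaemia libraries and 6.54% to 27.9% in control libraries. In a comparison, only genes above background in at least 4 of its libraries were tested: 15805 genes for comparisons among leukaemia libraries, 11054 among control libraries and 15189 among BM libraries of both arms. All 38 interferon genes passed among leukaemia libraries, 17 among control libraries and 36 over BM, where Ifit1 and Ifit3b did not pass. In 2 leukaemia libraries a feature stood apart: CNS HSC replicate 1 had a summed level of 2926 CPM over 13 microglia genes (group minimum 187 CPM), and BM LMPP replicate 3 was the smallest library, in which Slfn1 and Ifit3b had a count of 0, allowing up to 2.38 CPM (3 counts). CNS HSC replicate 2, with 24.4% background, had 5 of the 38 genes above background. The sort markers matched the labels among the leukaemia libraries: Ly6a, which encodes Sca-1, was higher in HSC than LK by a log2 difference of 3.03 ± 0.52 in the BM and 3.26 ± 0.52 in the CNS, and Flt3 was lower in CNS HSC than LMPP (-2.90 ± 0.52). Parts of some transcripts are shared with other genes: 57.6% of the 50-base stretches of Oas1a occur in Oas1g, 51.2% of those of Ifit3 in Ifit3b and 14.8% of those of Ifi204 in Ifi211, so counts of these genes may hold reads of their partners.

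Levels are given as CPM, counts brought to a common library size, with scaling by the trimmed mean of M-values (TMM). The interferon genes stood highest in LMPP of the CNS. Their summed level was 2534 ± 453 CPM (SD, n = 4) in leukaemia CNS LMPP, 1714 ± 308 in BM LMPP, 1649 ± 615 in CNS HSC, 1322 ± 78.0 in BM HSC, 1020 ± 234 in CNS LK and 923 ± 224 in BM LK. The lowest CNS LMPP library, at 2003 CPM, was below the highest BM LMPP library, at 2131 CPM, so those groups overlapped, as did CNS and BM in the other cell types. In control BM the sums were 905 ± 25.9 CPM in HSC, 975 ± 68.4 in LMPP and 605 ± 38.4 in LK, of which the background rate over the same exons accounted for 385, 374 and 127 CPM on average. In bulk RNA, fewer cells expressing a gene and less RNA of it per cell cannot be told apart.

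**Figure D1:**
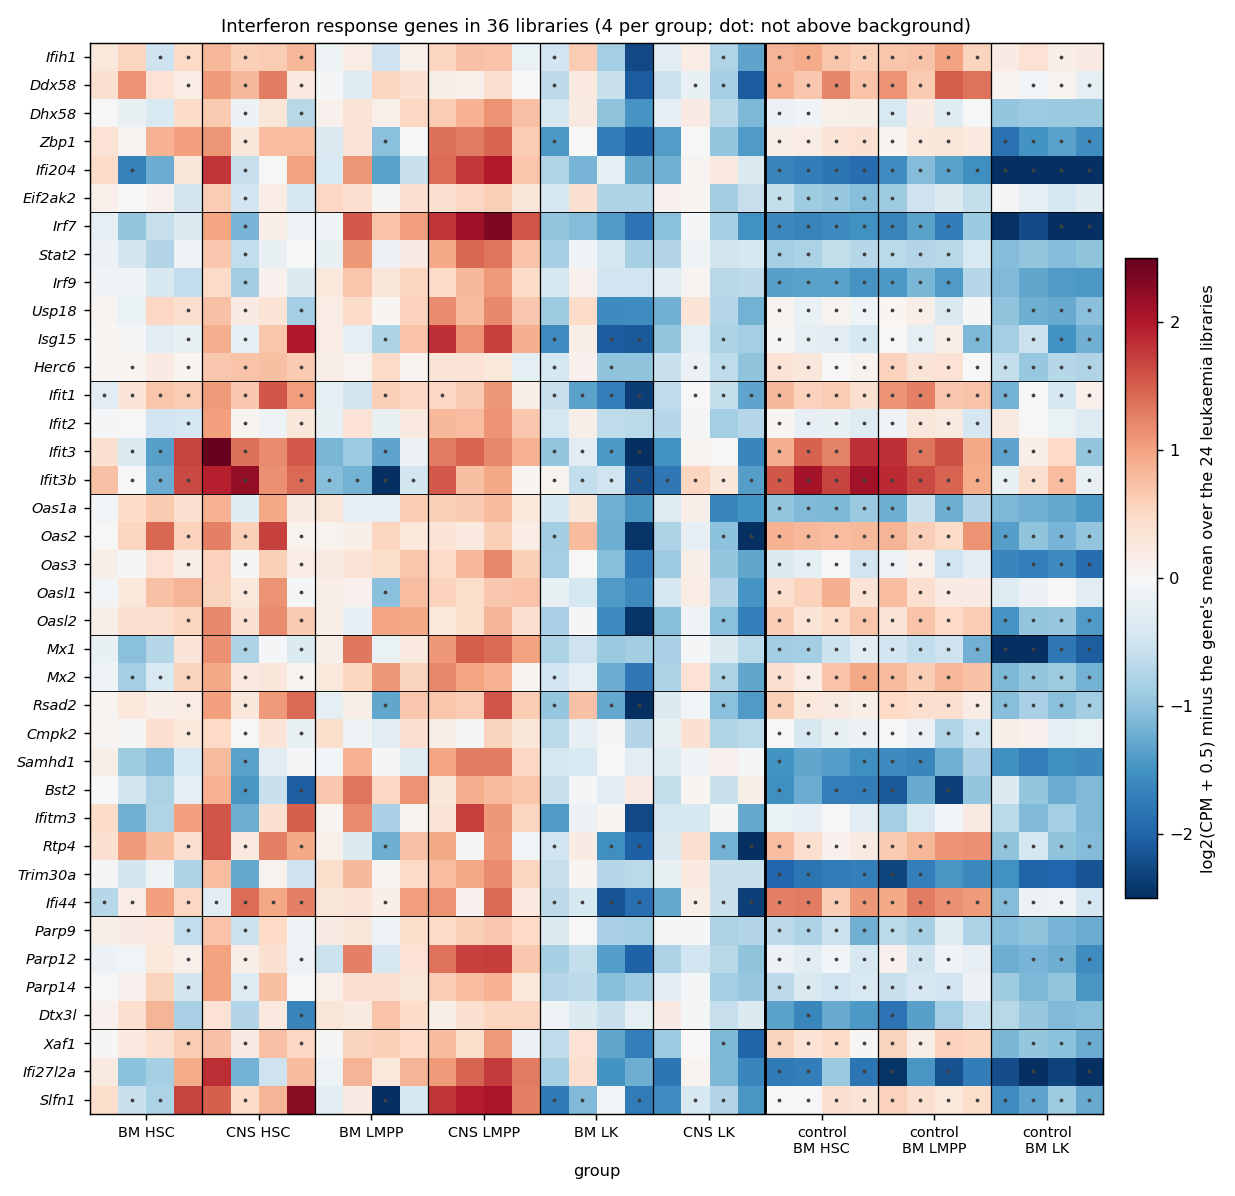
Level of each of the 38 interferon response genes (rows, ordered by role) in each of the 36 libraries (columns, 4 per group), as log2(CPM + 0.5) minus the gene's mean over the 24 leukaemia libraries; dots mark values not above background. CNS LMPP columns are mostly red and LK columns mostly blue, while most control HSC and LMPP cells carry dots.

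Per kilobase of exon, the genes differed widely in level. In CNS LMPP the highest group means were 89.4 CPM per kb for Ifi27l2a, a small mitochondrial protein gene, 68.4 for Ifitm3, which blocks fusion of viral and cell membranes, 65.9 for Irf7, and 46.8 for Trim30a, a TRIM-family protein. At the other end, Ifi44 had 2.30, Ifit1 2.49 and Herc6, the mouse ligase for ISG15, 2.60 CPM per kb, against a background of 0.342 CPM per kb. In BM LMPP the order began with Bst2 (tetherin, which holds budding virions to the cell) at 53.5 CPM per kb, and ended with Ifit3b at 0.54. In control BM HSC, Ifitm3 had 29.9 CPM per kb and the next gene, Ifi27l2a, 10.8, with a background of 2.39 CPM per kb. There, 28 of the 38 genes were above background in none of the 4 libraries, and the libraries had 2 to 8 of the genes above it. The same count per library was 37 to 38 in CNS LMPP, 28 to 37 in BM LMPP and 16 to 24 in control LK.

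**Figure D2:**
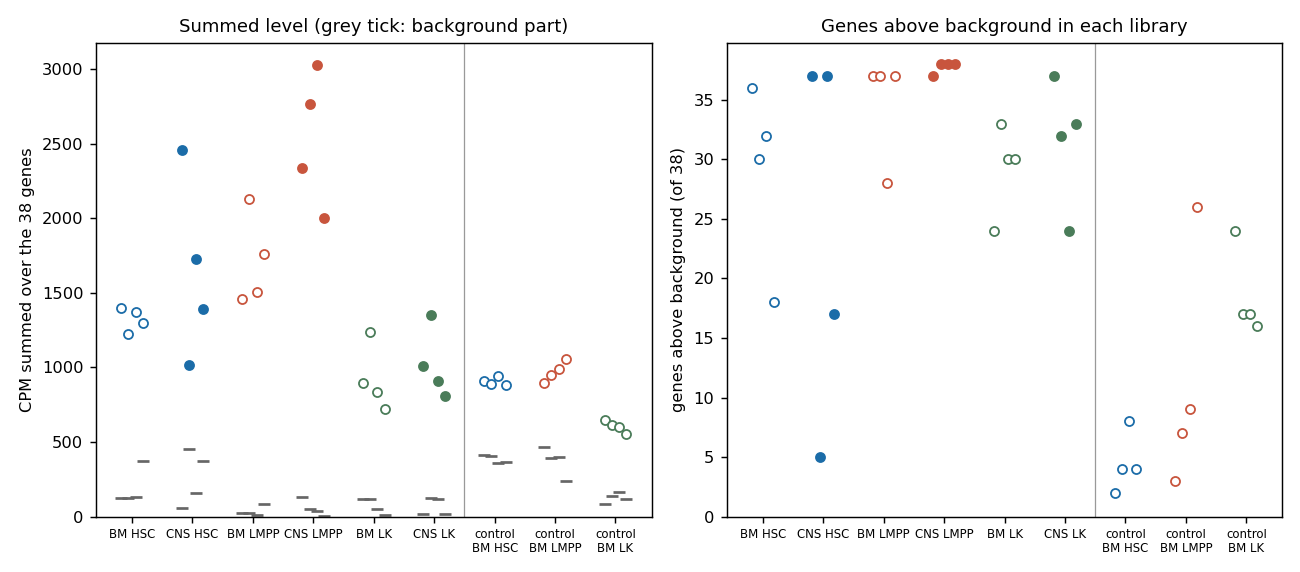
Left, CPM summed over the 38 genes in each library by group, with the part expected from background as grey ticks; right, the number of the 38 genes above background in each library. CNS LMPP libraries had 37 or 38 genes above background, while 3 of 4 control LMPP libraries and all control HSC libraries had fewer than 10.

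The first comparison asked whether leukaemia cells in the CNS differ from those in the BM. No CNS library of control mice was analysed here. Averaged over the 3 cell types, 36 of the 38 interferon genes had a higher level in the CNS, and 6 rose with the mouse as a block. They were the DNA sensor Ifi204, the IFIT gene Ifit3, the transcription factor Irf7 and Slfn1, a Schlafen gene known to restrain lymphocyte growth. The nucleotide-degrading enzyme Samhd1 and Zbp1, a sensor of Z-form nucleic acid, completed the 6. None fell. The background for this call was 428 of 15805 genes (2.71%), of which 290 were higher (1.83% of all) and 138 lower (0.873%). The median log2 difference of the 38 genes was 0.30 and that of all genes tested was 0.00.

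Without the block, edgeR called 0 of the 38 genes and 0 of 15805 (0%), with 14 of the 38 and 1490 of all genes at an unadjusted p under 0.05. DESeq2 without the block called 3 of the 38 and 1% of all genes. The median difference was then 0.34, with 35 of 38 genes higher in the CNS and an all-gene median of 0.01. The mouse labels pair the CNS and BM libraries, and the values below are from the fit with the mouse as a block.

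Ifi204 ranged from 9.15 to 66.8 CPM (median 19.4) over the 12 BM libraries and from 13.1 to 123 CPM (median 43.4) over the 12 CNS libraries. It was higher in the CNS in 11 of 12 mice, with a log2 difference of 1.08 ± 0.18 (SE; edgeR adjusted p = 0.00809). Ifit3 was low in most BM libraries (0.26 to 16.3 CPM, median 2.22) and ranged from 1.19 to 34.8 CPM (median 11.4) in the CNS. Its log2 difference was 1.56 ± 0.31 (adjusted p = 0.0185), with the CNS higher in 10 mice. Slfn1 ranged from 0 to 19.2 CPM (median 3.82) in the BM and from 1.56 to 28.7 CPM (median 12.2) in the CNS. The CNS was higher in 11 mice and the log2 difference was 1.2 ± 0.25 (adjusted p = 0.0211). The BM and CNS ranges of all 3 genes overlapped, while most mice had the higher value in the CNS.

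Irf7 ranged from 17.1 to 181 CPM (median 45.7) in the BM and from 21.7 to 317 CPM (median 65.7) in the CNS, with a log2 difference of 0.70 ± 0.15 (adjusted p = 0.0249) and 10 mice higher. Samhd1 was at 86.9 to 338 CPM (median 149) in the BM and 72.5 to 456 CPM (median 190) in the CNS. Its log2 difference was 0.46 ± 0.11 (adjusted p = 0.0366), with the CNS higher in 11 mice. Zbp1 ranged from 4.09 to 37.96 CPM in the BM and from 6.63 to 51.2 CPM in the CNS, with a log2 difference of 0.62 ± 0.15 (adjusted p = 0.0402) and 9 mice higher. For these 3 genes too the ranges of the niches overlapped.

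By role, 2 of 6 sensors passed the test (group median 0.33), 1 of 6 signalling genes (0.33), 1 of 4 IFIT genes (1.10), 1 of 8 antiviral enzymes and restriction factors (0.33) and 1 of 3 apoptosis and growth genes (0.32). None of the 5 OAS family genes, whose products make oligoadenylates that activate RNase L, passed (median 0.21), nor did Mx1 and Mx2 (0.44) or the 4 genes of the PARP and DTX3L group (0.24). Trim30a and Parp12, a mono-ADP-ribosyltransferase, were higher in the CNS in 11 of 12 mice without passing. At the other end, Bst2 was higher in the CNS in 4 of 12 mice and Dtx3l, a ubiquitin ligase that acts with PARP9, in 5.

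The number of the 6 calls depended on single mice. For leave-outs of 1 mouse or library, here and below, the share of all genes called is not given. A change in such a count is therefore not shown to be particular to the interferon genes. Leaving out 1 mouse at a time gave 1 call without HSC mouse 1 or LK mouse 4, 2 without HSC mouse 3, LMPP mouse 1, LK mouse 2 or LK mouse 3, 3 without LMPP mouse 3, and 10 without HSC mouse 4 or LMPP mouse 4. Without both the mouse of CNS HSC replicate 1 and that of BM LMPP replicate 3, 2 of the genes passed (0.418% of all genes) and the median was 0.20. Ifi204 passed in all 12 of these leave-outs, with adjusted p from 0.00257 to 0.0320.

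**Figure D3:**
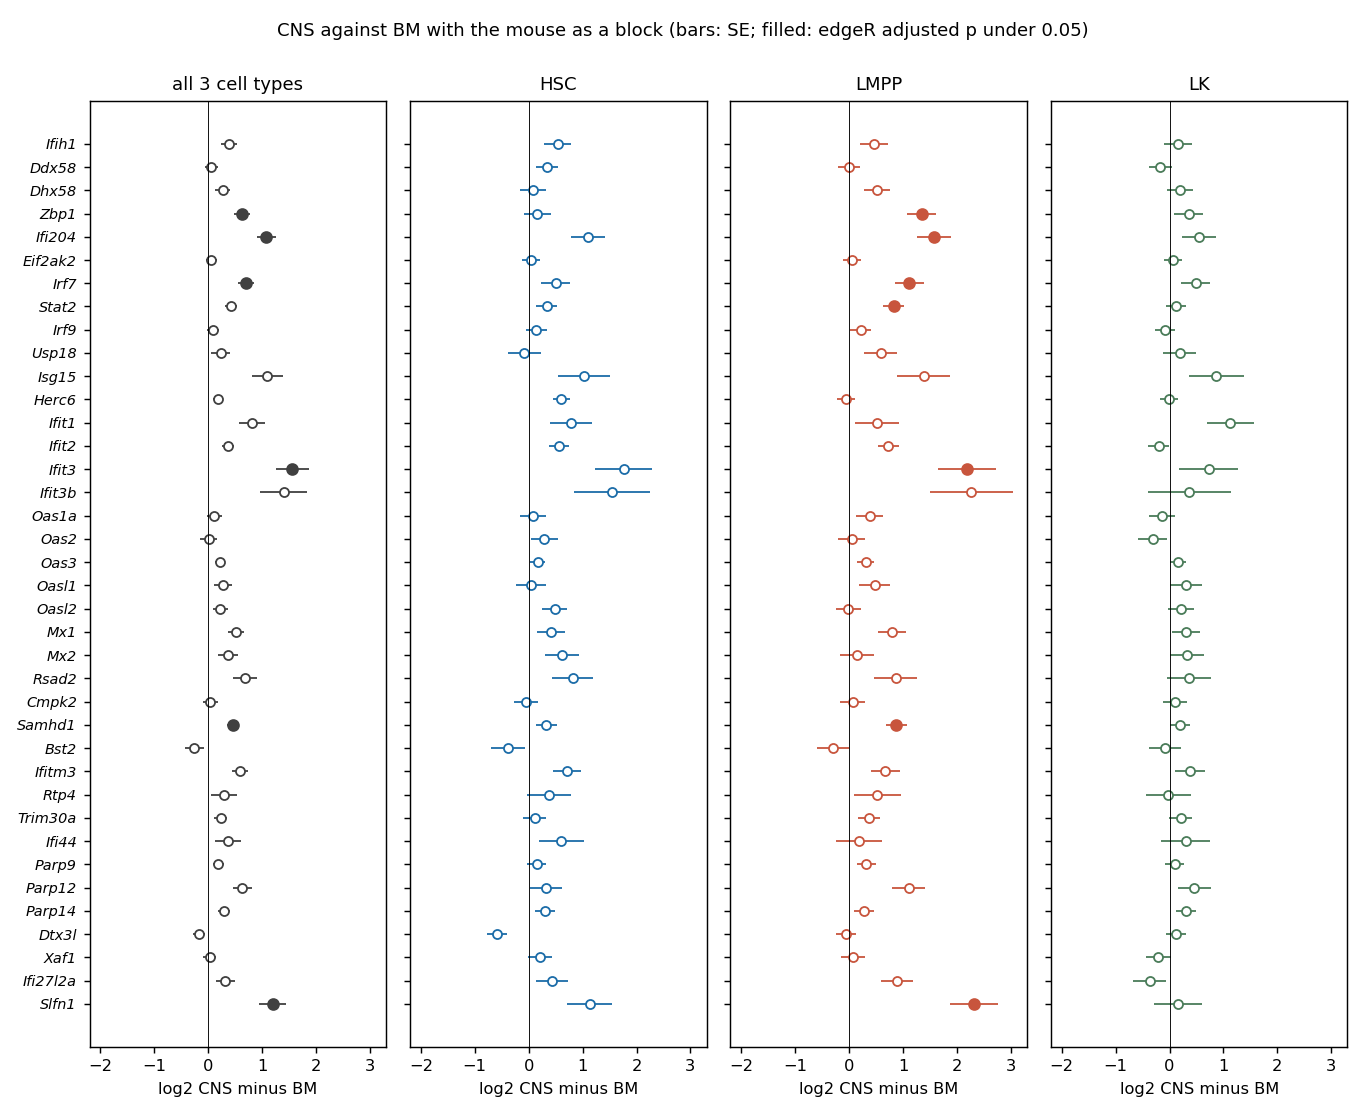
Log2 difference CNS minus BM with its SE for the 38 genes, with the mouse as a block, averaged over cell types and within each; filled points had an edgeR adjusted p under 0.05. Filled points are in the averaged panel (6 genes) and in LMPP (7 genes), and none is in HSC or LK.

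Within LMPP, 7 of the 38 genes rose in the CNS with the mouse as a block and none fell, against 325 of 15805 genes (2.06%), of which 268 were higher (1.7%) and 57 lower (0.361%). They were Slfn1, Zbp1, Ifi204, Samhd1, Stat2, Irf7 and Ifit3, and 33 of the 38 genes had a positive difference. The median of the 38 was 0.49 on the log2 scale and that of all genes 0.01. By role, 2 of 6 sensors, 2 of 6 signalling genes, 1 of 4 IFIT genes, 1 of 8 antiviral enzymes and restriction factors and 1 of 3 apoptosis and growth genes were called, and none of the OAS, Mx or PARP and DTX3L genes. Without the block edgeR called 0 of the 38 (0% of all genes), with 12 of the 38 and 1335 of all genes at an unadjusted p under 0.05. DESeq2 without the block also called 0 (0.392% of all genes). The calls thus rest on the pairing by mouse, which was weak in LMPP. Deviations from group means had a median same-mouse correlation of 0.073 there (from -0.361 to 0.378).

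Slfn1 had 4.56, 6.53, 0 and 4.02 CPM in BM LMPP replicates 1 to 4 and 20.6, 23.2, 24.4 and 14.0 CPM in CNS LMPP. Every CNS value was above every BM value, and the log2 difference was 2.31 ± 0.44 (adjusted p = 0.0216). Zbp1 had 14.3, 23.3, 8.74 and 18.6 CPM in the BM and 48.5, 46.3, 51.2 and 28.9 CPM in the CNS, again without overlap, with a log2 difference of 1.34 ± 0.26 (adjusted p = 0.0216). The CNS library of mouse 4 was the lowest of its group for both genes. Ifit3 had 1.88, 2.27, 1.59 and 4.19 CPM in the BM and 12.2, 13.7, 11.4 and 9.003 CPM in the CNS, a log2 difference of 2.19 ± 0.54 (adjusted p = 0.0494) with no overlap.

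Irf7 had 57.6, 181, 103 and 129.7 CPM in BM LMPP and 217, 275, 317 and 187 CPM in CNS LMPP. The groups did not overlap, by a small margin, and the log2 difference was 1.12 ± 0.26 (adjusted p = 0.0405). Stat2, the ISGF3 subunit whose promoter is printed above, had 55.2, 133, 56.4 and 72.2 CPM in the BM and 122, 170.4, 160.2 and 104 CPM in the CNS. Here BM mouse 2 lay above the lowest 2 CNS libraries, and the log2 difference was 0.82 ± 0.19 (adjusted p = 0.0367). Ifi204 had 23.4, 66.8, 11.9 and 20.9 CPM in the BM and 81.5, 105, 123 and 50.3 CPM in the CNS, with a log2 difference of 1.57 ± 0.32 (adjusted p = 0.0238). Samhd1 had 175, 338, 179 and 147 CPM in the BM and 367, 456, 445 and 264 CPM in the CNS, with a log2 difference of 0.88 ± 0.19 (adjusted p = 0.0303). In both genes BM mouse 2 overlapped the CNS range.

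Among all 38 genes, the 4 CNS values were above the 4 BM values for 11 in LMPP (Dhx58, Zbp1, Irf7, Usp18, Isg15, Ifit2, Ifit3, Ifit3b, Parp9, Ifi27l2a and Slfn1), against 2.19% of all genes tested. Isg15, a ubiquitin-like modifier, had 5.15, 3.73, 2.38 and 7.62 CPM in BM LMPP and 17.1, 10.3, 15.7 and 8.67 CPM in CNS LMPP, but did not pass the test. The LMPP calls rested on single mice: none of the 38 genes passed without LMPP mouse 1 or LMPP mouse 3, whose BM library was the smallest, 3 passed without LK mouse 4, and 4 without HSC mouse 3 or LK mouse 3. Without LMPP mouse 3 and HSC mouse 1 together, the LMPP median was 0.29.

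**Figure D4:**
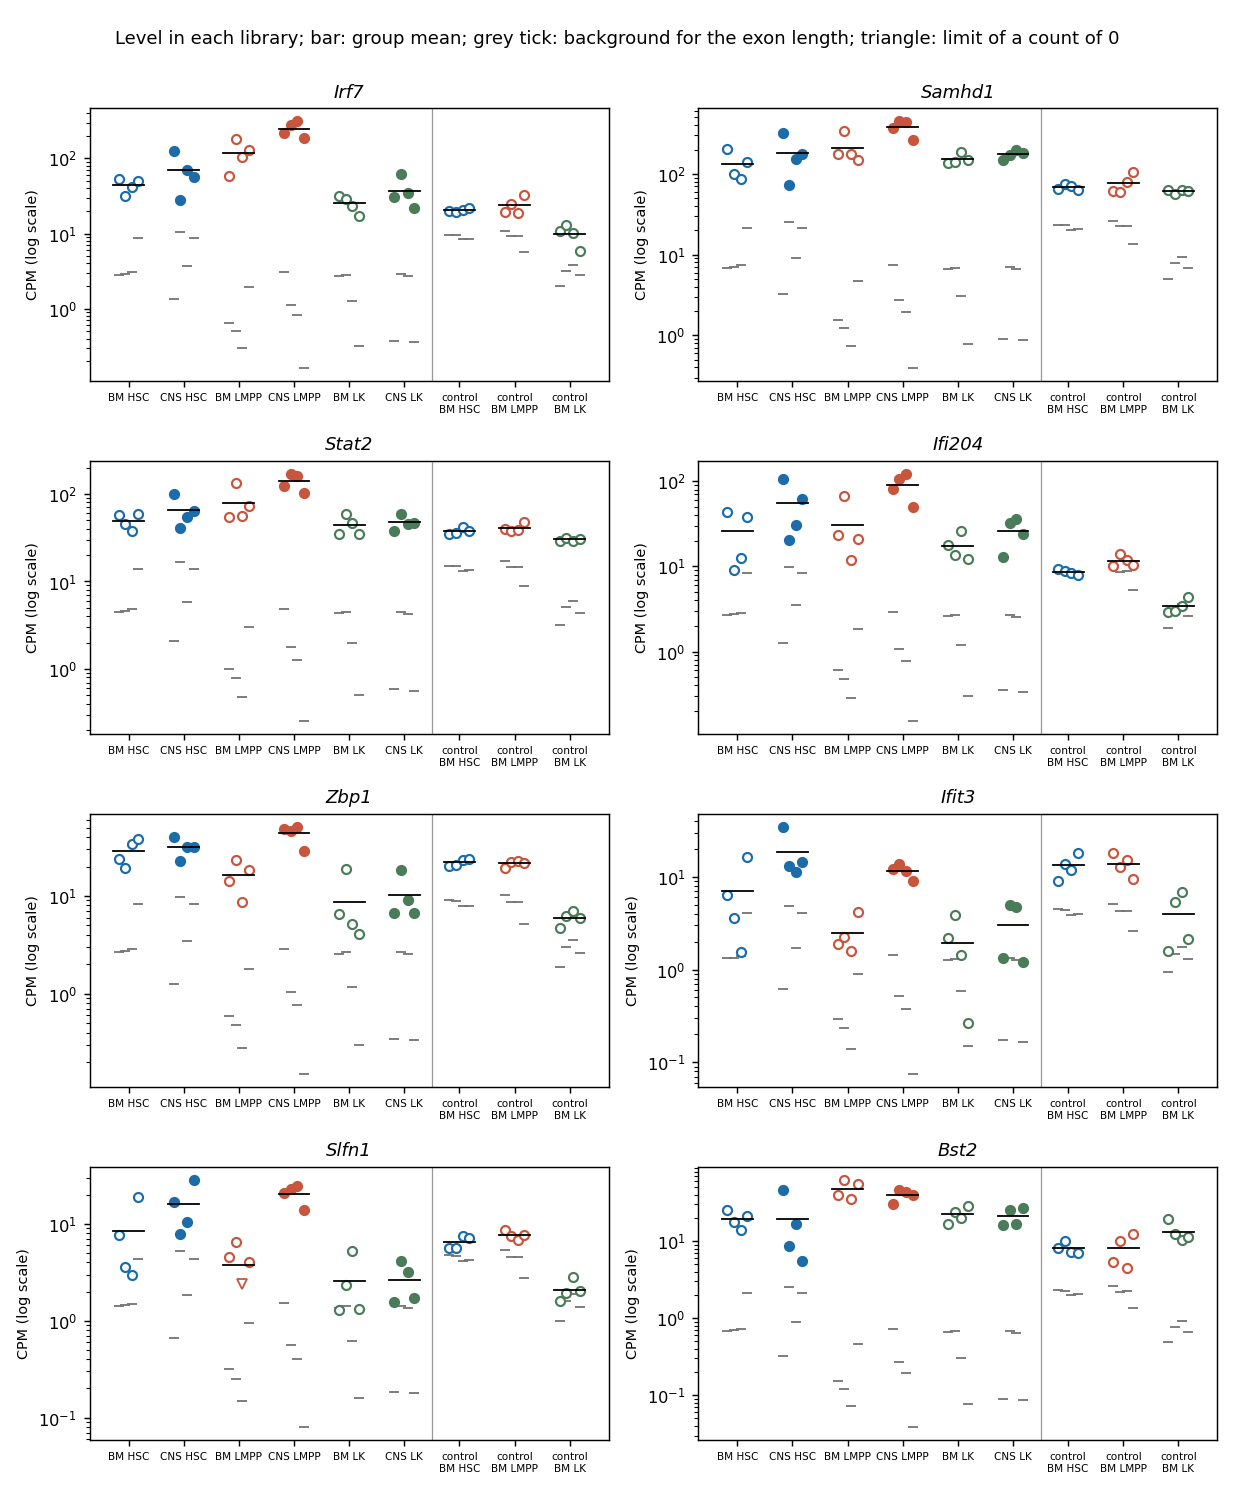
CPM (log scale) of 8 of the genes in each library, with group means as bars and the background for the exon length as grey ticks; the open triangle for Slfn1 is the upper limit of a count of 0. Irf7, Zbp1, Ifit3 and Slfn1 do not overlap between BM and CNS LMPP, and Bst2 does.

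Within HSC, 34 of the 38 genes had a higher level in the CNS, and none passed the test without or with the block, when 0 of 15805 genes did (0%). With the block 11 of the 38 and 1067 of all genes had an unadjusted p under 0.05, and DESeq2 with the block called 0 of the 38 (0.348% of all genes). The lowest p belonged to Herc6, which had 21.8, 21.8, 24.4 and 21.9 CPM in the BM and 34.1, 34.7, 35.6 and 33.3 CPM in the CNS. Its groups did not overlap in CPM, a level that includes background, and the log2 difference with the block was 0.61 ± 0.16 (edgeR adjusted p = 0.601). Background made up 26.7% of counts in BM HSC replicate 4, and 24.4% and 15.2% in CNS HSC replicates 2 and 4. These are shares of all counts. Background grows with exon length, and Herc6 was low per kilobase, so its own share can be larger. The gap in CPM is not shown to hold without background. Ifi204 had 43.0, 9.15, 12.7 and 38.1 CPM in BM HSC and 108, 20.3, 30.7 and 61.8 CPM in CNS HSC, a log2 difference with the block of 1.10 ± 0.31 (adjusted p = 0.601). Every mouse was higher in the CNS for Ifi204, while the group ranges overlapped. Ifit3 had 6.33, 3.61, 1.54 and 16.3 CPM in BM HSC and 34.8, 13.1, 11.3 and 14.6 CPM in CNS HSC, with a log2 difference of 1.76 ± 0.52 (adjusted p = 0.629). CNS was above BM without overlap for 3 of 38 genes (Ifih1, Herc6, Rsad2), against 0.645% of all genes. The median of the 38 genes without the block was 0.39, and 0.10 without HSC mouse 1, whose CNS library held the microglia genes, and LMPP mouse 3. Without CNS HSC replicate 2 none of the 38 passed either.

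Within LK, 27 of the 38 genes had a higher level in the CNS without the block (median 0.13) and 28 with it (median 0.19), and none passed in either fit, against 0% of all genes without the block and 0.00633% with it. Of the 38, only Ifit1 had an unadjusted p under 0.05, against 386 of all genes without the block and 655 with it. DESeq2 called 0 of the 38 in either fit (0% of all genes without the block and 0.0696% with it). Ifit1 had 2.56, 1.29, 0.88 and 0.40 CPM in BM LK and 2.45, 4.04, 2.504 and 1.33 CPM in CNS LK, overlapping ranges with a log2 difference with the block of 1.12 ± 0.44 (adjusted p = 1). In the same fit the log2 difference was 0.48 ± 0.26 for Irf7 and 0.55 ± 0.31 for Ifi204. None of the 38 had CNS values wholly above its BM values, a pattern found in 0.816% of all genes.

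An interaction term tested directly if the CNS minus BM difference varied between HSC, LMPP and LK, and none of the 38 genes passed, with or without the block (0% of all genes). At an unadjusted p under 0.05 there was 1 of the 38 and 213 of all genes without the block. With it there were 7 of the 38 and 782 of all genes. DESeq2 called 0 of the 38 in either fit (0% of all genes without the block and 0.127% with it). Ifit2, Slfn1 and Zbp1 had the lowest p without the block, each with an edgeR adjusted p of 1. So the calls in LMPP are not shown to differ from the values in HSC and LK.

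Mice of the same cell type differed among themselves. The median log2 ratio of CNS to BM over the 38 genes was 0.86, -0.02, 0.51 and 0.08 in HSC mice 1 to 4, with 38, 17, 33 and 22 of the genes higher in the CNS. In LMPP mice it was 0.75, 0.43, 1.19 and 0.01, with 34, 35, 33 and 19 genes higher. In LK mice it was 0.07, 0.04, 0.23 and 0.23, with 21, 19, 27 and 26 genes higher. HSC mice 2 and 4, LMPP mouse 4 and LK mice 1 and 2 were thus near 0. LK mice 3 and 4, at 0.23, had all-gene medians of -0.01 and 0.04. The median ratio of all genes above background was between -0.04 and 0.28, with the highest value in LMPP mouse 3, whose BM library was the smallest. Of all genes, 54.6%, 48.2%, 50.2% and 52.9% were higher in the CNS in HSC mice 1 to 4. The shares were 49.2%, 58.8%, 62.7% and 47.9% in LMPP mice and 54.8%, 51.8%, 49.4% and 56.0% in LK mice.

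**Figure D5:**
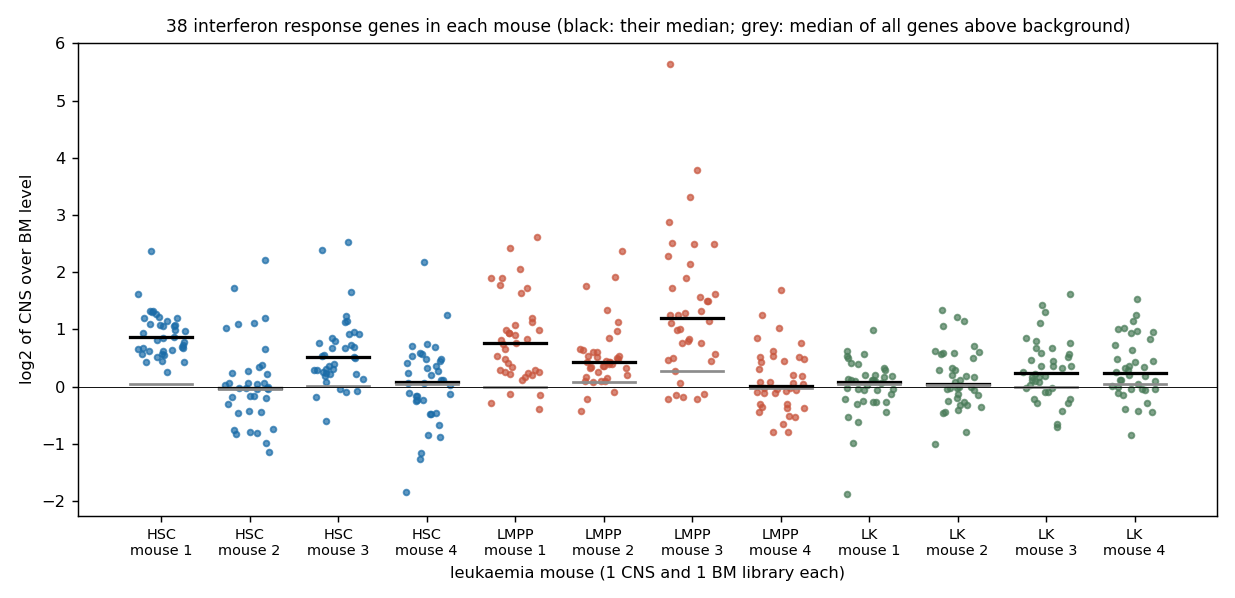
Log2 ratio of CNS to BM level, log2 of (CPM + 0.5), for each of the 38 genes (points) in each of the 12 leukaemic mice, with the median of the 38 (black bar) and of all genes above background (grey bar). The black bar stands clearly above the grey one in HSC mice 1 and 3 and LMPP mice 1, 2 and 3.

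Other genes moved with the CNS libraries. Of 13 immediate early genes, which respond quickly to stimulation and tissue handling, 7 rose in LMPP with the block (median 1.46), and their summed level was 482 to 824 CPM in CNS LMPP against 190 to 404 CPM in BM LMPP. Summed over 13 genes, microglia markers had 128 to 510 CPM in CNS LMPP and 48.5 to 199 CPM in BM LMPP, and 0 of 12 tested passed in LMPP (median 1.38). The microglia-defining gene P2ry12 was at 1.00 to 12.8 CPM in CNS LMPP and 0 to 2.30 CPM in BM LMPP. Border macrophage markers summed to 191 to 464 CPM in CNS LMPP and 34.96 to 347 CPM in BM LMPP, and 1 of 7 tested rose, Apoe. Of 7 monocyte genes, Ccr2 rose in LMPP (1.43 ± 0.28, adjusted p = 0.0216). Of 10 mature neutrophil genes none passed in LMPP (median -1.96), and they reached 4569 CPM in BM LMPP replicate 1 against at most 37.9 CPM in CNS LMPP. The 7 plasmacytoid dendritic cell markers, from a cell type known for high Irf7, went the other way, with 217 to 312 CPM in CNS LMPP and 324 to 563 CPM in BM LMPP, of which Tcf4 fell (log2 difference -0.64 ± 0.16, adjusted p = 0.0472). The part of these cells and of handling in the interferon gene values was not tested.

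The rest of the pathway was followed through fixed lists. Of 18 type I interferon genes themselves, 2 were tested (Ifnk and Ifnz), and neither passed in the CNS comparison over all cell types. Ifnb1 was above background in no leukaemia library. Of the 18, 5 were above background in at least 1 library of leukaemia BM HSC. The number was 2 in CNS HSC, BM LMPP and CNS LK, and 1 in CNS LMPP and BM LK. Of 13 genes of the receptor and its proximal signalling, 2 rose in the CNS over all cell types with the block: Socs3, a feedback inhibitor of JAK signalling (log2 difference 1.25 ± 0.27), and the transcription factor Irf5 (0.58 ± 0.14), with a list median of 0.12. Among 11 sensors and adaptors outside the 38 genes, 1 rose, the endosomal RNA sensor Tlr3 (1.58 ± 0.27), with a median of -0.02. None of 13 tested Gbp and Irg GTPases, which are induced above all by interferon gamma, passed (median -0.04). In LMPP alone, Irf5 (1.21 ± 0.24), Socs3 (2.16 ± 0.48), Tyk2 (0.76 ± 0.17), Tlr3 (2.37 ± 0.48) and its adaptor Ticam1 (0.96 ± 0.22) rose, and the receptor genes Ifnar1 and Ifnar2 did not pass. Tlr3 had a mean of 30.5 CPM in BM LMPP, with a range from 5.74 to 83.7, and of 116 CPM in CNS LMPP, with a range from 62.4 to 167.

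The next comparisons asked how the sorted cell types differ within each niche. In leukaemia CNS, the interferon genes were lowest in LK. Between CNS HSC and LK, 16 of 38 were higher in HSC and none lower, against 8.05% of all genes called, 2.83% higher and 5.22% lower, with a median log2 difference of 1.14 (all genes 0.02). They included the sensors Ddx58 (1.73 ± 0.39, adjusted p = 0.01999) and Zbp1 (1.65 ± 0.41, adjusted p = 0.0253), the OAS genes Oas2 (2.07 ± 0.54) and Oasl2 (1.81 ± 0.40), Ifit1 (1.89 ± 0.45), Ifit2 (0.98 ± 0.25), Slfn1 (2.62 ± 0.63), Xaf1, an antagonist of the apoptosis inhibitor XIAP (1.46 ± 0.40), and Parp14 (0.96 ± 0.25). Herc6 had the lowest p, with 34.1, 34.7, 35.6 and 33.3 CPM in CNS HSC and 14.1, 19.1, 13.4 and 10.2 CPM in CNS LK. Its groups did not overlap in CPM, a level that includes background, and the log2 difference was 1.31 ± 0.23 (edgeR adjusted p = 0.0146). Background made up 24.4% of counts in CNS HSC replicate 2 and 15.2% in replicate 4, and at most 8.73% in CNS LK. These are shares of all counts, and that of Herc6, a gene low per kilobase of exon, can be larger. Its gap in CPM is not shown to hold without background. In CNS HSC, 4 of the 38 genes were above background in all 4 libraries, and in CNS LK 24 were. With the background subtracted, 2 of the 38 passed (0.664% of all genes), with a median of 1.27. Of the other lists, Gbp5, Gbp2, Iigp1 and the ISG15-conjugating enzyme Ube2l6 were also higher in CNS HSC, as were C1qa, C1qb, C1qc and Olfml3 of the microglia list and Mrc1, Apoe, Pf4 and Cd163 of the border macrophage list. Microglia genes summed to 187 to 2926 CPM in CNS HSC (median 307) and 88.1 to 220.04 CPM in CNS LK. Without CNS HSC replicate 1, which held the most of them, 18 of the 38 genes passed. The other CNS HSC libraries held microglia genes too, and the part of these cells in the interferon gene values was not tested.

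With the replicate number as a block the count was 14 (5.59% of all genes). The 16 calls depended on the libraries used. None of the 38 genes passed without CNS HSC replicate 2 or without CNS LK replicate 4, 5 without CNS HSC replicate 4 or CNS LK replicate 1, 6 without CNS LK replicate 3 and 9 without CNS HSC replicate 3. Where every gene with at least 10 counts in 4 libraries was tested, the median of all genes moved from 0.02 to 0.52 and that of the 38 from 1.14 to 0.62, and none of the 38 passed.

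Between CNS LMPP and LK, all 38 genes had a higher level in LMPP, with a median of 1.33 (all genes -0.04), and 9 rose, against 59 of 15805 genes called (0.373%) with 31 higher (0.196%) and 28 lower (0.177%). With the replicate number as a block it was 8 (0.323%). Irf7 was at 217, 275, 317 and 187 CPM in CNS LMPP and 30.2, 61.4, 34.8 and 21.7 CPM in CNS LK, a log2 difference of 2.71 ± 0.39 (adjusted p = 0.00363). The 2 groups were well apart, and this gene passed in all 24 leave-outs of 1 library. Parp12 was at 63.6, 80.8, 82.8 and 39.2 CPM in CNS LMPP and 14.2, 17.5, 15.0 and 11.9 CPM in CNS LK, with no overlap and a log2 difference of 2.15 ± 0.35 (adjusted p = 0.0115). The other calls were Slfn1 (2.92 ± 0.63), Zbp1 (2.06 ± 0.41), Mx1 (1.69 ± 0.36), the ISGF3 subunits Stat2 (1.52 ± 0.28) and Irf9 (1.06 ± 0.23), Oas3 (1.43 ± 0.31) and Ifit2 (1.39 ± 0.25). Only 1 of the 38 passed without CNS LMPP replicate 3, CNS LK replicate 1 or CNS LK replicate 4, 2 without CNS LMPP replicate 2 or CNS LK replicate 3, 4 without CNS LMPP replicate 1, and 5 without BM HSC replicate 1, CNS HSC replicate 3 or BM LMPP replicate 4. None passed where all genes with 10 counts in 4 libraries were tested, with the median of the 38 at 1.48.

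Between CNS HSC and LMPP, 4 of the 38 were lower in HSC and none higher, against 13.1% of all genes called, 7.45% lower and 5.68% higher, and 3 with the replicate number as a block (9.55%). They were Irf7 (log2 difference -1.78 ± 0.38, adjusted p = 0.00920), Stat2 (-1.04 ± 0.28, 0.0224), Irf9 (-0.75 ± 0.23, 0.0373) and Samhd1 (-1.04 ± 0.33, 0.0417). In both fits the share of the 38 genes called was below the share of all genes called. Without the block it was above the 7.45% of all genes called lower. Irf7 had 124, 27.7, 69.9 and 57.1 CPM in CNS HSC, all below the CNS LMPP values. Outside the 38, Tyk2, Irf5, Irf1, Tlr3, Tlr9 and Myd88 were also lower in CNS HSC, and Ikbke and Gbp5 were higher. The count was 11 without CNS HSC replicate 1, and 1 without CNS HSC replicate 2, CNS HSC replicate 4, CNS LMPP replicate 2 or CNS LMPP replicate 3.

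In leukaemia BM the levels were also lowest in LK, but few genes of any kind passed. Between BM HSC and LK, 36 of 38 had a higher level in HSC (median 0.85, all genes 0.01). There edgeR called 0 of the 38 and 5 of 15805 genes (0.0316%), with 21 of the 38 and 2875 of all genes at an unadjusted p under 0.05. DESeq2 called 6 of the 38 and 1.72% of all genes. The genes of lowest p in the fits without or with the replicate number were Ifit1 (2.09 ± 0.47, adjusted p = 0.113), Zbp1 (1.77 ± 0.41, adjusted p = 0.113) and Parp12 (1.21 ± 0.35, adjusted p = 0.160). Of the 5 genes called, 3 were interferon-induced GTPases outside the 38: Irgm2 (1.43 ± 0.23), Gbp2 (1.83 ± 0.30) and Gbp5 (1.39 ± 0.25). A single one of the 38 passed without BM LK replicate 1 or 2.

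Between BM LMPP and LK, 37 of 38 had a higher level in LMPP (median 0.85, all genes -0.01). edgeR called 0 of the 38 and 1 of 15805 genes (0.00633%), with 24 of the 38 and 836 of all genes at an unadjusted p under 0.05. DESeq2 called 4 (0.209% of all genes). Irf7 had 31.3, 29.1, 23.0 and 17.1 CPM in BM LK, all below the BM LMPP values of 57.6 to 181 CPM, and its log2 difference was 2.22 ± 0.39 (adjusted p = 0.0584). Parp12 (1.51 ± 0.35) and Parp14 (1.15 ± 0.25) followed. Without BM LMPP replicate 1, 3 of the 38 passed. Between BM HSC and LMPP, edgeR called 0 of the 38 and 11 genes in all (0.0696%), and DESeq2 called 1 (3.08% of all genes). At an unadjusted edgeR p under 0.05 were 8 of the 38 and 3420 of the 15805 genes, which are similar shares. Irf7 (-1.38 ± 0.38, adjusted p = 0.131), Bst2 (-1.28 ± 0.40, adjusted p = 0.157) and Irf9 (-0.71 ± 0.23, adjusted p = 0.164) had the lowest p, and the median of the 38 was -0.15. Without BM LMPP replicate 3, edgeR also called none of the 38 between BM LMPP and LK or between BM HSC and LMPP.

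In control BM, 12 of the 17 tested genes were higher in HSC than in LK, and 13 in LMPP than in LK, with none lower, and both counts depend on the filter on low counts, and with a looser one many of these genes changed direction while others, such as Ifit3, stayed higher. The 17 genes are those that passed the filter, not all 38. Between HSC and LK, 70.4% of all genes were called, 36.7% higher and 33.7% lower, and the median of the 17 genes was 0.65 (all genes 0.04). Between LMPP and LK, 66% were called, 34.5% higher and 31.5% lower, with a median of 0.71 (all genes 0.02). Dhx58 was the first by p in HSC against LK (1.39 ± 0.15, adjusted p = 2.78e-07) and Parp14 in LMPP against LK (1.06 ± 0.12, adjusted p = 1.15e-06). Where every gene with 10 counts in 4 libraries was tested, all 38 could be fitted, 13 were lower and 3 higher in HSC than LK (25% and 19.7% of all genes), Dhx58 had -0.25 and Parp14 had -0.60 in HSC against LK, and the median of all genes was 0.31. In LMPP against LK 13 were then lower and 9 higher (24.5% and 15.3% of all genes), with Parp14 at -0.42. Between HSC and LMPP edgeR called 0 of the 17 genes (2.27% of all genes), and DESeq2 also called 0 (4.34%). At an unadjusted edgeR p under 0.05 were 0 of the 17 and 1887 of the 11054 genes. With the mouse as a block the counts were also 12, 13 and 0, against 68.7%, 64.2% and 0.932% of all genes. Eif2ak2 (-0.21 ± 0.13), Ifi27l2a (0.52 ± 0.36) and Dtx3l (-0.25 ± 0.17) had the lowest p. As the background made up 385 of 905 CPM in control HSC and 127 of 605 CPM in control LK, these comparisons set unlike shares of background against each other. With the background subtracted, the median of the 17 genes was 0.87 in HSC against LK and 0.94 in LMPP against LK (all genes -0.03 and -0.02).

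The last comparison set leukaemia BM against control BM. The arms stand in separate deposited tables, so disease, microRNA, table and any difference in handling cannot be told apart, and most genes differed. Over the 3 cell types 15 of 36 tested genes were higher in leukaemia and 4 lower, against 69.8% of all genes called, 35.6% higher and 34.1% lower, with a median log2 difference of 0.22 (all genes 0.02). Only 17 of the 38 genes passed the filter among control libraries, so the others tested here needed leukaemia libraries to enter. The filter thus favours genes high in leukaemia, and the counts of higher genes, also within each cell type, rest partly on it. Trim30a was at 61.1 to 103 CPM in leukaemia BM HSC, 109 to 184 in LMPP and 63.0 to 109 in LK, and at 20.9 to 37.9 CPM over all 12 control libraries. The arms did not overlap, and the log2 difference was 1.65 ± 0.12 (adjusted p = 2.60e-10). Irf9 was at 54.8 to 136 CPM in leukaemia and 29.9 to 51.0 CPM in control BM, again apart, with a log2 difference of 1.16 ± 0.10 (adjusted p = 1.49e-09). Irf7 (1.5025 ± 0.16), Bst2 (1.43 ± 0.16), Dtx3l (1.18 ± 0.14), Samhd1 (1.16 ± 0.14), Ifi27l2a (2.02 ± 0.27), Ifi204 (1.69 ± 0.26), Oas1a (1.02 ± 0.17) and Parp9 (0.69 ± 0.12) were also higher. The 4 lower genes were Ifih1 (-0.75), Ddx58 (-0.74), Ifit3 (-1.54) and Ifi44 (-0.79), of which Ifih1 and Ifi44 were above background in no control HSC or LMPP library, Ddx58 in 2 and Ifit3 in 4 of the 8.

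Within HSC, 12 of 36 were higher and 1, Mx2, lower (48.2% of all genes called, 27.5% higher, 20.7% lower), and with the background subtracted none was lower. Within LMPP, 14 were higher and 4 lower (64.6% called, 32.7% higher, 31.9% lower), and within LK, 9 were higher and none lower (17.2% called, 10% higher, 7.18% lower). Trim30a, Irf9, Irf7, Samhd1, Ifi27l2a, Ifi204 and Parp9 were higher in leukaemia in all 3. In LMPP the differences reached 2.43 ± 0.29 for Bst2 and 2.42 ± 0.48 for Ifi27l2a, and the lower genes there were Ifit3 (-2.54 ± 0.65), Ddx58 (-1.21 ± 0.32), Ifih1 and Rtp4. In LK, Mx1 (1.52 ± 0.33) and Oas3 (0.93 ± 0.24) were higher. Testing every gene with 10 counts in 4 libraries moved the all-gene median to -0.58 and the count to 32 higher and 1 lower of 38 (27.2% and 37.8% of all genes), and in LMPP it turned Ddx58 to 0.38. Without leukaemia BM LMPP replicate 3, 16 of the 36 genes passed in LMPP.

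The disease difference depended on cell type in 2 of 36 genes, against 30.8% of all genes: Bst2 (edgeR adjusted p = 0.00686) and Eif2ak2, the RNA-activated kinase PKR (adjusted p = 0.0366). Bst2 had 39.7, 63.1, 35.8 and 54.6 CPM in leukaemia LMPP and 5.38, 10.1, 4.52 and 12.5 CPM in control LMPP, while in LK it had 16.7, 24.1, 20.2 and 28.6 CPM in leukaemia and 19.5, 12.4, 10.3 and 11.2 CPM in control. The arms were well apart in LMPP and overlapped in LK. Eif2ak2 had 43.9, 77.4, 34.4 and 34.6 CPM in leukaemia LK and 57.0, 50.8, 43.7 and 47.8 CPM in control LK, overlapping values, and was higher in leukaemia in HSC (0.71 ± 0.21) and LMPP (0.80 ± 0.21). The count was 6 without leukaemia BM HSC replicate 4, 5 without control LMPP replicate 4, and 1 without leukaemia LK replicate 1 or 3, control HSC replicate 3 or 4, control LMPP replicate 1 or control LK replicate 1 or 2.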

How the data were processed

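RNA was extracted from sorted cells with the Quick-RNA Microprep kit and made into stranded total RNA libraries with the SMARTer Stranded Total RNA-Seq v3 Pico kit, per the labels' protocols. The deposited tables, 1 for the leukaemia and 1 for the control libraries, hold whole-number counts per gene, although their names speak of normalisation. The submitters' processing notes name the build GRCm39 and DESeq2. The sources used here do not name the aligner or the counter, or say whether counting used the strand. Symbols and exon lengths came from a GENCODE annotation of an older build (GRCm38), which gave 52081 of 55414 identifiers a symbol, and no coordinates were carried between builds.

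Counts were tested with edgeR 4.0.16 (R 4.3.3) by its quasi-likelihood test with TMM scaling and Benjamini-Hochberg adjustment over all genes tested (threshold 0.05), on genes above background in at least 4 libraries. The 24 leukaemia libraries, the 12 control libraries and the 24 BM libraries were each fitted as group means. The second fit adds the mouse as a block for CNS against BM and for control cell types, where libraries come from the same mouse per the labels. Same-mouse CNS and BM libraries had a median correlation of deviations from group means of 0.267 (from -0.361 to 0.694), and 7 of 12 matched their own mouse best. By cell type the median was 0.455 in HSC, 0.301 in LK and 0.073 in LMPP, with 3, 2 and 2 of 4 matching. The pairing was thus weakest in LMPP. For control cell types the median was 0.043, with 4 of 12. Alternatives were DESeq2 1.42.0, DESeq2 size factors, a minimum of 10 counts in 4 libraries, no filter, background subtraction and leaving out each library or mouse. CPM levels used TMM factors over the 36 libraries on 17145 genes, and log2 ratios add 0.5 CPM. The scripts were tested on simulated data.

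The members and gene lists were chosen with earlier results of these data known. Named members are those called without or with the mouse block, at most 10 per comparison by smallest p of either fit, or the 3 of smallest p where none was called, and genes outside the members come from the lists only, at most 4 per list. No pair of replicates agreed within sampling noise (lowest chi-square per degree of freedom 2.77). Depth limits the low genes most: a count of 0 allows 3 counts, and such limits cover counting error only. Results for 1 further gene of the signalling list are not reported here.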

Additional observations from a re-analysis of the deposited data

Results flagged for a closer look

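In 63 groups of 4 libraries, the gap of the highest or lowest library to its nearest neighbour was set against the range, and 4 groups exceeded Dixon's 95% critical value, where chance gives about 5% of groups. Slfn1 had a count of 0 in leukaemia BM LMPP replicate 3, the smallest library, below the other 3 (4.02 to 6.53 CPM). Herc6 was highest in leukaemia BM HSC replicate 3, at 24.4 CPM beside 21.8 to 21.9 CPM in the others. Herc6 was lowest in leukaemia CNS LMPP replicate 4, at 18.005 CPM beside 25.3 to 26.6 CPM. The median log2 CPM of the 38 genes was highest in control BM HSC replicate 3, at 4.55.

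The difference between leukaemia and control BM depended on the cell type for Bst2 (edgeR interaction, adjusted p = 0.00686) and for Eif2ak2 (adjusted p = 0.0366). The leukaemia and control libraries come from separate tables, and the part of handling in these differences cannot be told apart from disease.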

How the results depend on the processing

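Of 3606 settings tried over 114 results on single genes, 2828 kept direction and side of the threshold, 719 were no longer past it, 21 newly passed and 38 reversed. The reversals came with testing every gene with 10 counts in 4 libraries or every gene, settings that add genes at background level and move the scaling. In control HSC against LK the values under these 2 filters were Dhx58 -0.25 and -0.29, Parp14 -0.60 and -0.64, Ifitm3 -0.45 and -0.49, Stat2 -0.91 and -0.95, Oasl1 -0.42 and -0.46, Parp9 -0.85 and -0.89, Samhd1 -1.06 and -1.11, Ifi27l2a -0.085 and -0.13, and Oas1a -1.0006 and -1.04. In control LMPP against LK they were Parp14 -0.42 and -0.45, Dhx58 -0.28 and -0.31, Stat2 -0.69 and -0.72, Ifitm3 -0.39 and -0.43, Parp9 -0.65 and -0.68, Samhd1 -0.79 and -0.82, Oasl1 -0.53 and -0.57, Irf9 -0.96 and -0.99, and Oas1a -0.77 and -0.81. Ddx58 in leukaemia against control LMPP became 0.38 and 0.38.

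Counts of called genes follow, and causes were not tested beyond the filters' own construction. Percentages in brackets are the shares of all genes tested that were called, and they are not given for the leave-outs of 1 library or mouse. The mouse as a block raised the CNS against BM count from 0 (0%) to 6 (2.71%) over all cell types. In LMPP it raised the count from 0 (0%) to 7 (2.06%). With the block, all cell types gave 15 (6.14%) with DESeq2, 0 (0.0744%) with 10 counts and 2 (0.21%) without a filter. They gave 2 (0.418%) without the mice of CNS HSC replicate 1 and BM LMPP replicate 3, and 1 to 10 leaving out a mouse. LMPP gave 11 (5.46%), 0 (0%), 0 (0.0424%) and 0 (0.00633%) under the same settings, 4 (1.99%) with background subtracted, and 0 to 8 leaving out a mouse. Without the block, all cell types gave 3 (1%) with DESeq2, 1 (0.072%) without a filter and 0 to 2 leaving out a library, and LMPP 0 to 2. Leaving out a library gave 0 to 1 in BM HSC against LK and 0 to 1 in BM HSC against LMPP, where DESeq2 gave 6 (1.72%) and 1 (3.08%). In BM LMPP against LK it gave 0 to 3. There DESeq2 gave 4 (0.209%), DESeq2 size factors 1 (0.0253%) and background subtraction 1 (0.0253%). CNS HSC against LK gave 0 to 24, with 25 (20.5%) by DESeq2, 0 (0%) with 10 counts, 0 (0.6%) without a filter and 2 (0.664%) with background subtracted. CNS LMPP against LK gave 1 to 13, with 20 (3.4%) by DESeq2, 0 (0.00496%) with 10 counts and 2 (0.0369%) without a filter. CNS HSC against LMPP gave 1 to 11, with 9 (25.1%) by DESeq2, 0 (0.0595%) with 10 counts, 0 (0.157%) without a filter and 1 (3.78%) with background subtracted. With 10 counts and without a filter, control LMPP against LK gave 22 (39.8%) and 20 (28.4%). Under these 2 settings leukaemia against control gave 33 (65%) and 33 (54.8%) over all types and 27 (21.4%) and 25 (17.3%) in HSC. In LMPP it gave 32 (62.8%) and 30 (50.2%), and its interaction with cell type 11 (12.6%) and 10 (9.89%). That interaction gave 1 (31.1%) with DESeq2 size factors, 1 (23.7%) with background subtracted and 1 to 6 leaving out a library. With DESeq2 size factors the all-gene medians of leukaemia against control were -0.10 to -0.16.

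Between leukaemia cell types, and between leukaemia and control, libraries share only a replicate number (median correlations -0.144, with 3 of 24 libraries matching their own number best, and 0.03, with 3 of 12). That number as a block gave 14 calls in CNS HSC against LK (5.59% of all genes), 8 in LMPP against LK (0.323%) and 3 in HSC against LMPP (9.55%). In leukaemia against control HSC it gave 12 higher and none lower, without the lower call of Mx2. In control cell types, the block changed no count of calls. Genes of few counts, such as Ifit1, Ifit3b and Slfn1, are limited by depth.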
